A study of Mus musculus with 7 samples.

Results

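Mast cells of the mouse aorta were followed through 7 single-cell RNA libraries. A barcode was counted as a mast cell when it held at least 200 detected genes, at most 25% mitochondrial UMIs and at least 1 UMI of 3 or more of the 7 mast cell genes Cpa3, Kit, Tpsb2, Cma1, Mcpt4, Ms4a2 and Fcer1a. It also had to hold no UMI of Pdgfra (a fibroblast receptor), C1qa (a macrophage complement gene) or Pecam1 (an endothelial adhesion gene), and at most 2 UMIs of Myh11 (smooth muscle myosin). A UMI is a molecular tag that counts a captured transcript. The rule found 166 mast cells among 68662 barcodes that passed the gene and mitochondrial limits (0.242%), of 76359 deposited. The 7 mast cell genes and the 4 exclusion genes chose these cells, so their levels are given as descriptions and no p-value of theirs is reported.

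Aortas came from mice fed a high-salt diet for 3 weeks, control mice included, so no comparison here is of diet. The control group is Slc38a2flox/flox, in which Slc38a2 (an importer of small neutral amino acids) carries conditional alleles, with 3 libraries called flox control 1 to 3. The other group is Slc38a2deltaEC, an endothelial deletion of the same gene, with 4 libraries called knockout 1 to 4. The labels name no Cre driver, age or sex, and do not say whether each library is a separate animal, so p-values measure the spread between libraries. Tissue was minced and digested with dispase, elastase, collagenases, DNase and hyaluronidase before capture on the BD Rhapsody system.

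Mast cells are tissue-resident immune cells that arise from blood-borne progenitors and depend on KIT, the receptor for stem cell factor. They store histamine, serotonin and proteases on a heparin core in cytoplasmic granules and release them when IgE on their surface receptor is crosslinked, or when peptides bind MRGPR receptors. In arteries they sit mainly in the adventitia, and mouse connective tissue mast cells are known for the chymase-type proteases Cma1 and Mcpt4, the tryptase Tpsb2 and carboxypeptidase Cpa3, while mucosal mast cells carry Mcpt1 and Mcpt2.

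The libraries held 22646246 to 73102988 UMIs in 6167 to 13792 barcodes. Knockout 4 stood apart before any mast cell comparison: smooth muscle cells made up 3.44% of its barcodes against 15.6% to 29.98% in the other libraries, and barcodes with a UMI of Ptprc (the leukocyte antigen CD45) made up 15.96% against 3.84% to 8.99%. Pairs of libraries shared at most 218 barcodes (1.79% of the smaller library). The labels give goblet as the cell type. 1 UMI of a goblet gene occurred in all mast cells together, and 6 of 7 goblet genes, Muc2 among them, were at 0. Of genes of other cell types, 7 of 7 T cell and 7 of 7 neutrophil markers were at 0 in the mast cells. Fibroblast markers summed to 714 UMIs, macrophage markers to 84 and smooth muscle markers to 108, with defining Pdgfra and C1qa at 0 by the rule. Erythroid markers reached 3895 CPM (UMIs per 1000000 mast cell UMIs of the library) in knockout 4 and 0 to 91.5 elsewhere. A single knockout 4 cell held 196 of the 264 Hbb-bs UMIs.

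Mast cells were rare in every library, and their share of barcodes set knockout 4 apart from the other 6 libraries, not the genotypes apart from each other. The 15, 24 and 8 mast cells of flox control 1 to 3 were 0.127%, 0.210% and 0.145% of kept barcodes. The 10, 20, 18 and 71 mast cells of knockout 1 to 4 were 0.0987%, 0.197%, 0.146% and 0.974%. Knockout 1 to 3 lay within or just below the flox control range, and the exact 95% binomial interval of knockout 4 (0.761% to 1.23%) lay above that of each other library, of which the highest bound was 0.312%. Knockout 4 alone supplied 42.8% of all mast cells.

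The mean share was 0.160% ± 0.0436 (SD, n = 3) in flox control and 0.354% ± 0.415 (SD, n = 4) in knockout libraries. The difference of 0.194 percentage points was smaller than the knockout spread (two-sided exact permutation test over 35 splits, p = 0.80, where the smallest possible p is 0.029). Without knockout 4 the difference turned to -0.0130 percentage points. T cells were high in the same library, at 1.60% of its barcodes against 0.144% to 0.323% elsewhere. Of barcodes with a Ptprc UMI, mast cells that held such a UMI made up 1.11%, 1.75% and 2.36% in flox control 1 to 3. In knockout 1 to 4 they made up 1.25%, 1.85%, 2.01% and 3.95% (46 of 1164 barcodes in knockout 4). Ptprc was found in 70.5% of all mast cells unthinned and in 33.5% at 1000 UMIs per cell, so this scale depends on depth. On that scale the group difference was 0.526 percentage points (exact permutation p = 0.63), and without knockout 4, an alternative added after seeing the data, it was -0.0366.

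**Figure D1:**
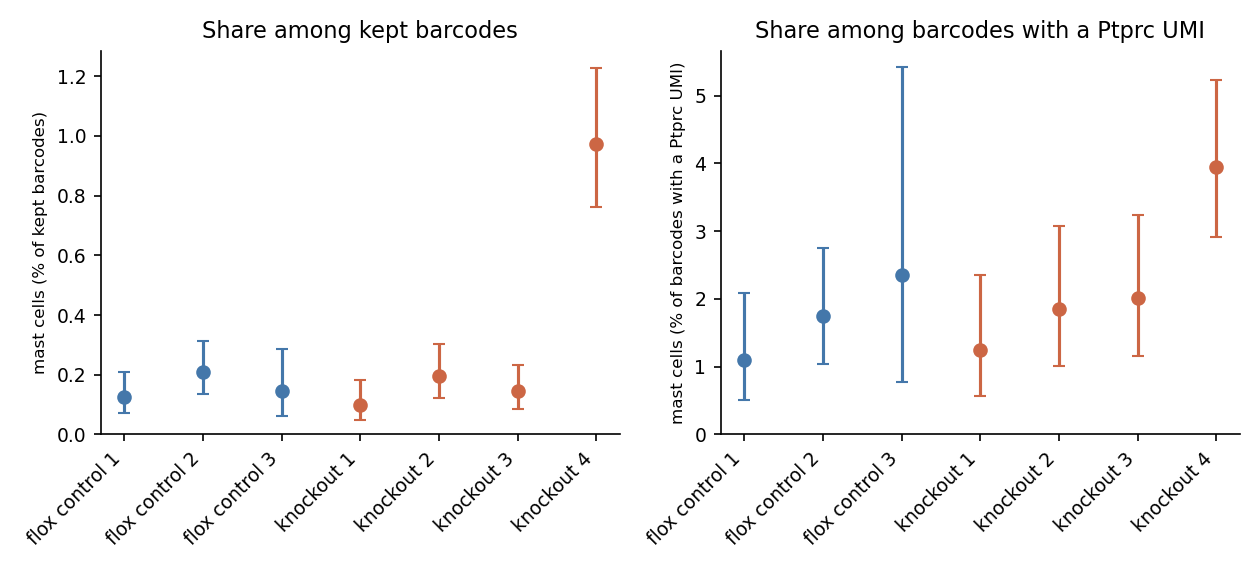
Mast cells in percent of kept barcodes (left axis panel), and mast cells with a Ptprc UMI in percent of barcodes with a Ptprc UMI (right axis panel). Each library is blue for flox control or orange for knockout, with exact 95% binomial intervals that cover counting error only. Knockout 4 sits at 0.974% on the left and 3.95% on the right, and the other 6 libraries lie between 0.0987% and 0.210% on the left.

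Most members carried the complete set of rule genes. Of the 166 cells, 127 (76.5%) held a UMI of 7 of 7 genes, 24 of 6, 9 of 5, 3 of 4 and 3 of 3. Just outside the rule, 29 barcodes without exclusion genes held 2 of the 7 genes, 21 of them in knockout 4, and 398 held 1. Without the exclusion genes, 303 barcodes held at least 3 mast cell genes. Of these, 80 carried a Pecam1 UMI, 41 a Pdgfra UMI, 25 a C1qa UMI and 13 more than 2 Myh11 UMIs. The doublet caller Scrublet marked 1 of the 166 cells.

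After each cell was thinned to 1000 UMIs, which left out 8 shallower cells, Cpa3 was found in 98.7% of 158 cells, Cma1 in 98.7%, Mcpt4 in 98.7% and Tpsb2 in 98.1%. The surface receptors were found less evenly, with Kit in 82.3%, Fcer1a in 72.8% and Ms4a2 in 56.3%. The unthinned shares were 99.4% for Cpa3, 98.8% for Cma1, 99.4% for Mcpt4, 98.2% for Tpsb2, 95.8% for Kit, 87.3% for Fcer1a and 83.1% for Ms4a2.

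Outside mast cells, an Mcpt4 UMI occurred in 1.57% of macrophages, 1.56% of T cells, 1.18% of fibroblasts and 0.468% of smooth muscle cells. In knockout 4, the library with the most mast cells, it occurred in 6.82% of macrophages and 5.91% of fibroblasts. Kit occurred in 4.29% of smooth muscle cells, 0.343% of fibroblasts and 0.165% of macrophages, and in 0.398% of the smooth muscle cells of knockout 4 (1 of 251). The macrophage and T cell gates left out barcodes with a Cpa3 UMI, and the fibroblast and smooth muscle gates did not. Shares of these classes are therefore not strictly alike.

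The mast cells held 527 to 8857 UMIs (median 3173) and 375 to 2866 genes (median 1521.5) each. Median UMIs per mast cell were 2637, 2651.5 and 1905 in flox control 1 to 3 and 4836, 4305, 4447 and 2963 in knockout 1 to 4, so the knockout cells were the deeper ones in these libraries. Mitochondrial UMIs were 5.71% at the median.

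Granule proteases took a median of 8.86% of a mast cell's UMIs, summed over 12 protease genes, and up to 21.5% in a single cell. The library medians were 6.66%, 6.31% and 10.9% in flox control 1 to 3 and 8.26%, 8.16%, 8.27% and 10.9% in knockout 1 to 4. Flox control 3 and knockout 4 shared the highest median, so the groups overlapped.

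**Figure D2:**
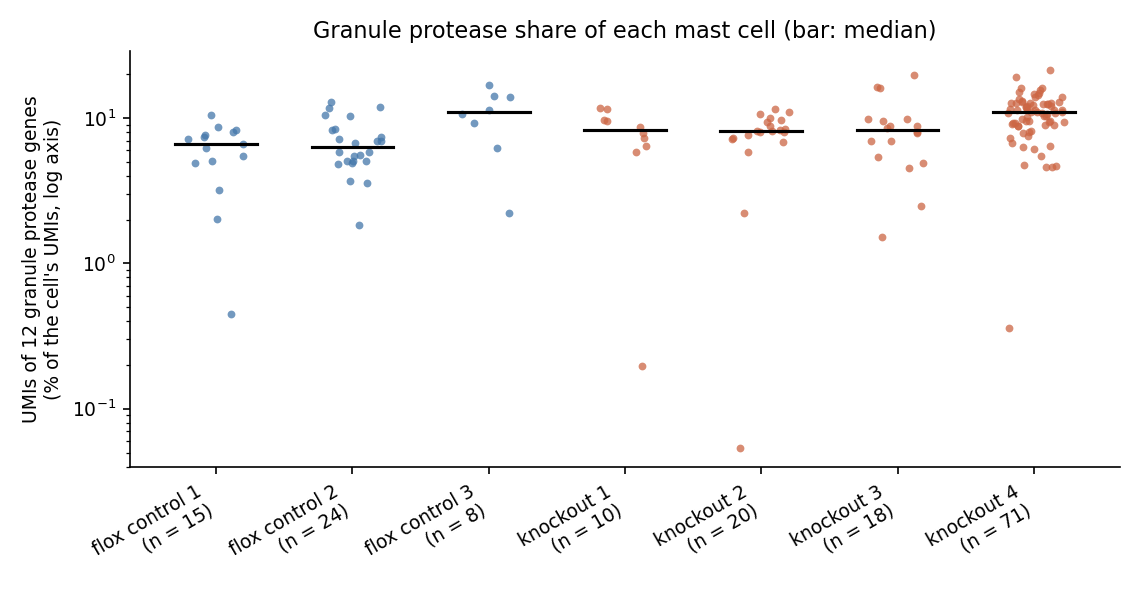
Share of each mast cell's UMIs that came from 12 granule protease genes (percent, log axis), 1 point per cell and a bar at the library median. Medians lie between 6.31% and 10.9%, and 4 cells fall below 1%, from flox control 1 and knockout 1, 2 and 4.

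In 4 members, under 1% of UMIs came from Cma1, Mcpt4, Tpsb2 and Cpa3. The highest of these 4 held 0.446% and the next member held 1.52%, so the cells below the gap met the marker rule with few protease UMIs. The knockout 2 barcode (7492 UMIs) held 4 protease UMIs beside 55 UMIs of Col1a2 and 49 of Dcn (fibroblast matrix genes), 57 of Pi16, 72 of Ccl2 and none of Ptprc. The knockout 1 barcode (3053 UMIs) held 3 Cpa3, 1 Ms4a2 and 1 Fcer1a UMI beside 21 of Hdc, 6 of Gata2, 93 of Ccl4, 81 of Ccl3 and 32 of Il6. Of the 714 fibroblast marker UMIs in all mast cells, these 4 barcodes held 238.

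The proteases of connective tissue mast cells were abundant in each of the 7 libraries, whereas those of mucosal mast cells were at or near 0. Cma1, Mcpt4, Tpsb2 and Cpa3 are rule genes and Mcpt1 and Mcpt2 are not. The presence of the former was thus set in part by the rule, and the contrast is a description. Levels are given as CPM, the gene's UMIs per 1000000 UMIs of a library's mast cells, a scale that is not per gene length, so genes are not ranked against each other. Mcpt4 (ENSMUSG00000061068, GRCm38 chromosome 14, 56059629 to 56062313, minus strand), the mouse chymase nearest in function to human chymase, stood at 21413, 27452 and 44425 in flox control 1 to 3 and at 30709, 29385, 32705 and 37217 in knockout 1 to 4. Cma1 (ENSMUSG00000022225, chromosome 14, 55941451 to 55944675, minus strand), a second chymase, stood at 11553, 10173 and 16047 in flox control and at 17542, 13451, 15685 and 18799 in knockout libraries. Knockout 1 to 4 lay above flox control 1 and 2 for both chymases, and flox control 3 lay among or above them.

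Tpsb2 (ENSMUSG00000033825, chromosome 17, 25366305 to 25369098, plus strand), a secreted tryptase, stood at 12903, 10134 and 15697 in flox control and at 12351, 11728, 12652 and 21797 in knockout libraries, with knockout 4 the highest. Cpa3 (ENSMUSG00000001865, chromosome 3, 20215620 to 20242181, minus strand), the granule carboxypeptidase, varied least of the 4, from 19560 in flox control 1 to 26979 in flox control 3, with knockout libraries at 22415 to 26535 inside that range. The tryptases Tpsab1 (442 UMIs) and Tpsg1 (496 UMIs) were lower in count. The aligned stretches of Tpsb2 and Tpsab1 transcripts are 81.5% identical over 401 bases, and those of Cma1 and Mcpt4 73.1%, and how reads that fit 2 such genes were counted is not given in the sources used here.

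The mucosal proteases Mcpt1 and Mcpt2 had 0 and 7 UMIs in the mast cells. Mcpt9, a granule protease outside the fixed list of mucosal mast cell genes, had 0. Other members of that mucosal list were present, with Itgb7 at 103 UMIs in 67 cells and Tgfbr1 at 179 UMIs in 81 cells. Itga2 had 35 UMIs in 29 cells, and Itgae and Cd160 had 0. Mcpt8, a basophil protease, had 1 UMI. Cathepsin G (Ctsg) had 69 UMIs in 16.3% of cells, and the 30 UMIs of Gzmb (granzyme B) included 19 in a single flox control 3 cell.

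Prss34, a protease known from basophils and some mast cells, was uneven. Its level was 45.8, 197 and 43.7 CPM in flox control 1 to 3 and 0, 558, 907 and 739 in knockout 1 to 4. It was found in 38 of the 166 cells (22.9%): in 2, 4 and 1 cells of flox control 1 to 3 and in 0, 5, 8 and 18 cells of knockout 1 to 4. Knockout 2 to 4 lay above flox control, knockout 1 below it. A knockout 4 cell held 33 of the 294 UMIs, and macrophages held 1 Prss34 UMI in all.

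**Figure D3:**
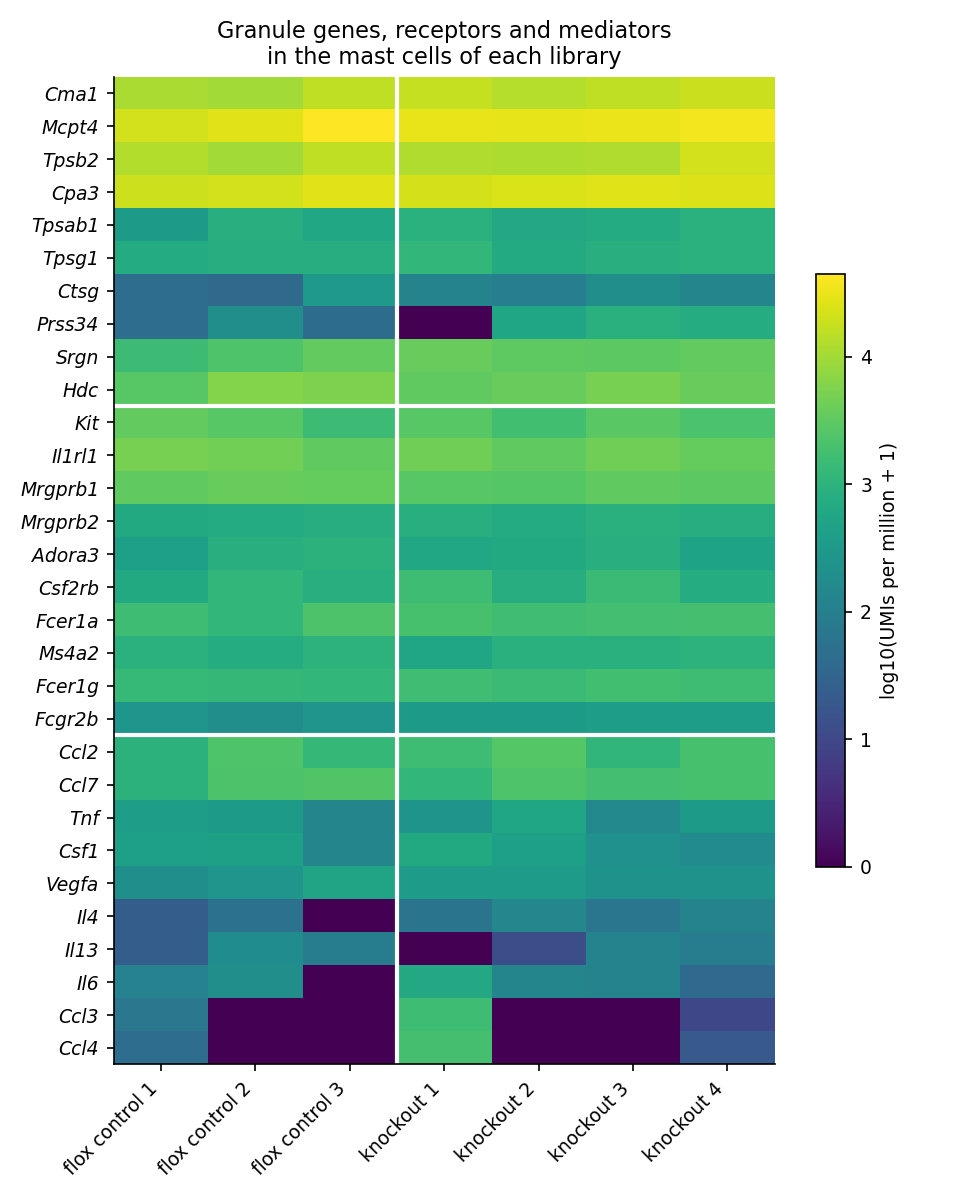
Levels of granule genes (top block), receptors (middle block) and cytokines and chemokines (bottom block) in the mast cells of each library, as log10 of CPM plus 1. Granule protease levels run through all 7 libraries, Prss34 is at 0 in knockout 1, and Ccl3 and Ccl4 are bright in knockout 1 (1611 and 1870 CPM).

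To see which genes beyond the rule set mast cells apart, their UMIs were summed per library and compared with those of 3629 macrophages and 257 T cells of the same libraries, each chosen by a marker gate of its own. Both gates left out barcodes with a UMI of Cpa3, Pdgfra or Pecam1. Leaving out Cpa3 removed some barcodes with stray mast cell RNA. Low counts of mast cell genes in macrophages and T cells were thus set in part by the gates. The fits used the 6 libraries with at least 10 mast cells, which left out flox control 3, and kept the library as a block. A gene was called at an adjusted p under 0.05 in edgeR's quasi-likelihood test with Benjamini-Hochberg adjustment, and differences are log2 fold changes ± SE. Of 7995 genes tested against macrophages, 1109 were higher in mast cells (13.9%) and 2022 lower (25.3%), with a median difference of -0.21. Of 1487 genes tested against T cells, 432 were higher (29.1%) and 388 lower (26.1%), with a median of 0.01.

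Receptors for basic peptides, amine handling and the GATA2 factor led the genes higher in mast cells than in macrophages. Mrgprb1, a receptor of the MRGPR family, stood at 2697 to 3736 CPM over the 7 libraries and at 0 to 0.883 in macrophages, which held 7 UMIs in the fitted libraries (difference 12.36 ± 0.28, edgeR adjusted p = 3.1e-31). It had 0 UMIs in T cells, at least 719-fold lower. Slc18a2, the transporter that loads amines into granules, stood at 1331 to 1848 and had 3 macrophage UMIs in those libraries, a ratio of 8463 in pooled CPM with a counting interval of 2886 to 41120.

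Mrgprb2, the mouse receptor for many mast cell secretagogues, stood at 663 to 907 with 2 macrophage UMIs (ratio 6568.5, interval 1807 to 54412). Gata2, a transcription factor that mast cells need, stood at 1396 to 2748 (difference 11.54 ± 0.28, adjusted p = 2.1e-30 in edgeR). Tph1, the first enzyme of serotonin synthesis outside the brain, stood at 433 to 660 and had 3 macrophage UMIs (ratio 3238, interval 1098 to 15787).

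The other genes named by the size of their rise against macrophages were Tpsab1, Tpsg1, Gpr141b, Hs6st2 (heparan sulfate sulfotransferase), Cyp11a1 (cholesterol side chain cleavage), Cd200r3 and Mrgprx2, with differences of 10.60 to 11.53. A rise in 6 of 6 libraries was a condition for being named, so that agreement is not a result. Mrgprx2 and Mrgprb1 are close copies, 86.1% identical over their aligned stretches, so their counts are uncertain against each other. Against T cells, Atp8b5, Adora3, Slc6a4 (the serotonin transporter) and Slc45a3 had 0 T cell UMIs and were at least 231, 144, 129 and 119-fold higher in mast cells. Hdc, the enzyme that makes histamine, was higher by 9.18 ± 0.28 (edgeR adjusted p = 2.2e-14).

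**Figure D4:**
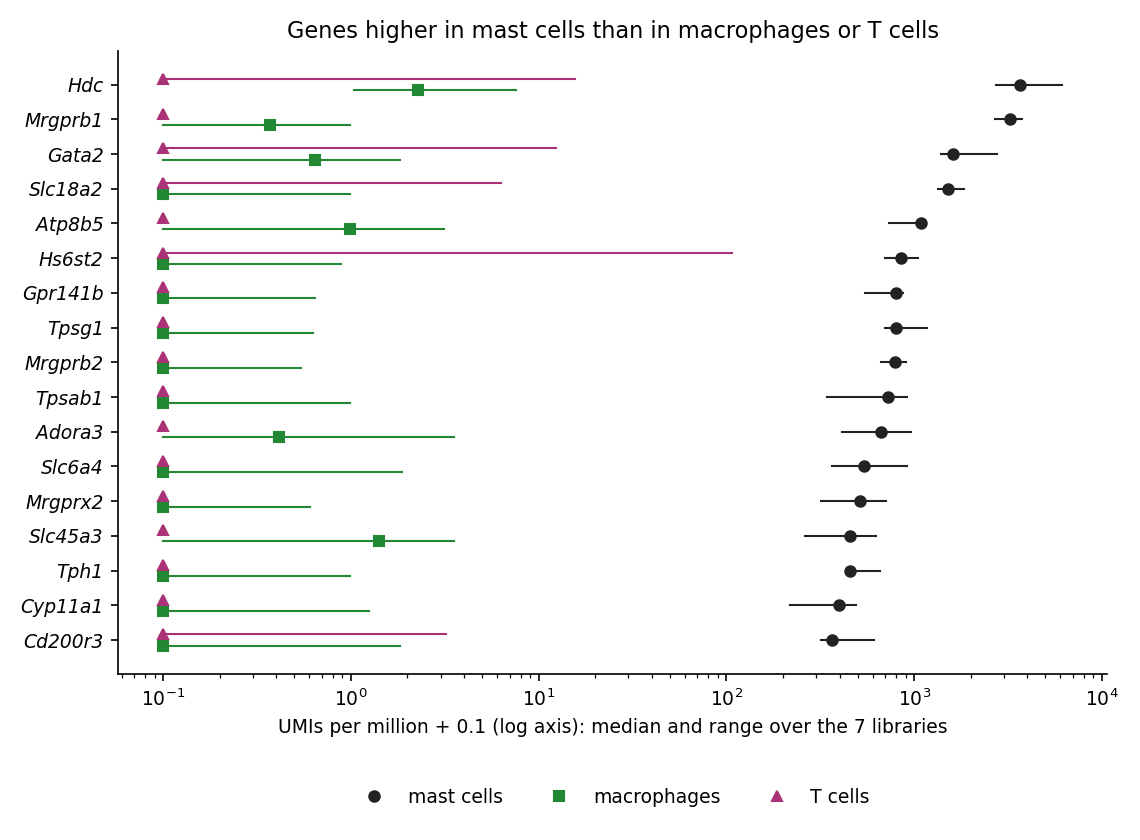
Levels of genes named by the size of their rise, in mast cells (black), macrophages (green) and T cells (purple), as the median and range over 7 libraries of CPM plus 0.1 on a log axis. No mast cell range overlaps that of macrophages or T cells, from Mrgprb1 (2697 to 3736 in mast cells) down to Cd200r3 (318 to 612).

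Genes lower in mast cells by the same rule of size were those of macrophages and T cells. Eps8, Msr1 (a scavenger receptor), Cd209f, S100a4, Ly86 and Gatm had 0 UMIs in the fitted mast cells and were at least 89.9, 65.5, 64.3, 59.7, 58.5 and 40.3-fold lower than in macrophages. Ccl5, Il2rb, S100a4, Icos, Itgal and Gimap3 were at least 617, 151, 126, 118, 107 and 80.7-fold lower than in T cells, again with 0 mast cell UMIs.

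Several of the genes with high levels carry GATA words, the letters that GATA factors bind, just before their start sites. The windows shown are the last 140 bases before the RefSeq start site (GRCm38.p6), in the gene's direction, chosen because they hold a word in rule genes and in receptors of the MRGPR and CD200R families. Capitals mark the words AGATAA and AGATAG, the words TGATAA and TGATAG, and matches of any of them on the opposite strand.
Cpa3, chr3:20242182-20242321, minus strand: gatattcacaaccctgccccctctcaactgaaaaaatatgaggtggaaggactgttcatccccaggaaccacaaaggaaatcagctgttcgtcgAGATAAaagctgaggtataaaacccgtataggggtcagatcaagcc
Cma1, chr14:55944676-55944815, minus strand: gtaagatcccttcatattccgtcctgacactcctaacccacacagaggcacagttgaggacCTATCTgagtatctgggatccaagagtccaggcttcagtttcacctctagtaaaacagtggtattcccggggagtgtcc
Mcpt4, chr14:56062311-56062450, minus strand: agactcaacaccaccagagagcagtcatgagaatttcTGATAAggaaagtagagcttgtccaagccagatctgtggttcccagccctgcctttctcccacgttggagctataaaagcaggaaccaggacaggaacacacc
Ms4a2, chr19:11623720-11623859, minus strand: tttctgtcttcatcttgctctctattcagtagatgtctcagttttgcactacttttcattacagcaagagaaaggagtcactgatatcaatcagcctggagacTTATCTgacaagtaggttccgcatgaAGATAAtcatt
Fcer1a, chr1:173227230-173227369, minus strand: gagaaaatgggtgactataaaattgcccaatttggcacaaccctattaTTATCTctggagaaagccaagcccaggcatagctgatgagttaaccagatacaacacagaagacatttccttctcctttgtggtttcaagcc
Mrgprb1, chr7:48456343-48456482, minus strand: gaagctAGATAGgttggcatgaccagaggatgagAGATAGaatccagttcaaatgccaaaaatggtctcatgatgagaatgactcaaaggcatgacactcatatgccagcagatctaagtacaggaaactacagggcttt
Mrgprb2, chr7:48558087-48558226, minus strand: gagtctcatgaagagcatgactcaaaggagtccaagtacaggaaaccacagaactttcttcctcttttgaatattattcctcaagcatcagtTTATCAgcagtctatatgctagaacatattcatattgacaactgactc
Cd200r3, chr16:44943538-44943677, plus strand: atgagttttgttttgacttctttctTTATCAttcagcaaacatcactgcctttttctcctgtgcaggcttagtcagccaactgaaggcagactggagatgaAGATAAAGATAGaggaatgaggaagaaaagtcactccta

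Of the rule genes and the genes named as higher, 22 of 24 had an entry among the RefSeq promoters, some with more than 1 start site. Tpsb2 and Tpsab1 had none in the table used. Within these 140 bases a GATA word lay in 12 of 29 promoters (41.4%) of the 22 genes. Over all genes it lay in 4835 of 32544 promoters (14.9%). The 140 bases were chosen for holding a word in some of these genes, so their share was raised by that choice and is not a test. In the window of 250 bases before to 50 bases after the start, the counts were 17 of 29 (58.6%) and 9645 (29.6%). An E-box of the kind MITF binds (the word CATGTG on either strand, or the word CACGTG) lay in 4 of these 29 promoters (13.8%) and in 20.5% of all promoters. The promoters of Gata2, Hdc, Kit and Tph1 held no GATA word in the 140 bases. Nor did those of Mrgprx2, Gpr141b, Hs6st2, Cyp11a1, Atp8b5 and Slc45a3. Genes of 1 family, such as Mrgprb1 and Mrgprb2, share sequence, and a match is a description of letters.

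The granule storage and heparin list holds genes that make histamine, load granules and build the heparin core. Of its 22 genes, 21 were tested against macrophages, where 13 were called higher and 5 lower, beside 13.9% and 25.3% over all genes. The median difference was 1.25. Hdc stood at 2722, 6122 and 5334 in flox control 1 to 3 and at 3282, 3624, 5042 and 3672 in knockout 1 to 4, with overlap of the groups (10.08 ± 0.27 against macrophages, edgeR adjusted p = 3.4e-29). Serpinb1a, an inhibitor of granule serine proteases, was higher by 7.06 ± 0.20, the heparin sulfotransferases Ndst2 by 4.10 ± 0.24 and Hs3st1 by 6.47, and the chain polymerase Ext1 by 1.82. Srgn (serglycin, the core that heparin chains are built on) was higher by 1.25 ± 0.15, and the lysosomal genes Ctsc and Lamp1 were lower by -4.19 and -2.80. Against T cells 11 of these genes had counts enough to be tested. Of them 10 were called higher and none lower, beside 29.1% higher and 26.1% lower over all genes. Some, such as Hdc (5 T cell UMIs) and Slc18a2 (2), entered that test only through their mast cell counts, so their calls follow in part from the filter.

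In the IgE receptor list, Fcer1a and Ms4a2 encode the alpha and beta chains and Fcer1g the gamma chain that other Fc receptors share. Fcer1a, a rule gene, stood at 1578, 1193 and 2230 in flox control and at 2009, 1652, 1841 and 1854 in knockout libraries. Ms4a2, also a rule gene, stood at 915, 747 and 1006, and at 557, 891, 907 and 999. Fcer1g differed by -0.27 ± 0.14 from macrophages (edgeR adjusted p = 0.12), which use it with other receptors, and was higher than in T cells by 3.96 ± 0.33. Of 18 genes tested against macrophages, 9 were called higher and 2 lower, beside 13.9% and 25.3% over all genes. The adaptor Lat2 (3.32 ± 0.18) and the kinase Prkcb (2.14 ± 0.15) were among the higher.

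KIT itself, a rule gene, stood at 3432, 2740 and 1530 in flox control and at 2804, 1747, 2930 and 2133 in knockout libraries, with overlapping groups. Of 19 other genes of the KIT and transcription factor list tested against macrophages, 13 were called higher and 4 lower. Over all genes the shares were 13.9% and 25.3%. Gata1 (8.08 ± 0.69, 29 mast cell UMIs against 1 in macrophages), Meis2 (5.87), Tal1 (3.97) and Mitf (1.44 ± 0.19) were higher, all transcription factors of the mast cell lineage or of blood progenitors. Spi1 (-2.66) and Runx1 (-1.73), myeloid factors that macrophages also use, were lower.

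Among other activating receptors, Il1rl1 (ST2, the receptor for the alarmin IL-33) stood at 4873, 4536 and 3192 in flox control and at 4336, 3196, 4278 and 3602 in knockout libraries, and was 6.66 ± 0.18 higher than in macrophages. The adenosine receptor Adora3 (10.56 ± 0.31), the ATP channel P2rx1 (7.45), the endothelin receptor Ednra (6.71) and Csf2rb (3.49 ± 0.18), the shared chain of the IL-3, IL-5 and GM-CSF receptors, were higher as well. The complement receptors C3ar1 (-7.35) and C5ar1 (-7.91, 3 mast cell UMIs), Ednrb (-8.46), the pattern receptor Tlr2 (-6.01) and P2rx7 (-1.47) were lower. In all, 10 of 19 were called higher and 7 lower, beside 13.9% and 25.3% over all genes. Tacr1, a substance P receptor, and Adora2b had 0 UMIs.

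Of 13 inhibitory receptor genes tested against macrophages, 4 were called higher and 5 lower, beside 13.9% and 25.3% over all genes. The median difference was -0.15, against -0.21 over all genes. Fcgr2b, the inhibitory Fc receptor for IgG, was lower by -1.86, at 275, 197 and 262 CPM in flox control and 338, 345, 389 and 390 in knockout libraries. Cd33, a sialic acid receptor, was lower by -1.18 ± 0.21, and Inpp5d (SHIP1, a lipid phosphatase of inhibitory signalling) was higher by 1.91.

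Of 14 lipid mediator genes tested against macrophages, 8 were called lower and 3 higher, beside 25.3% lower and 13.9% higher over all genes. Hpgds, the synthase of prostaglandin D2, stood at 333 to 641 CPM and differed from macrophages by 0.07 ± 0.18 (edgeR adjusted p = 0.80). Alox5, the first enzyme of leukotriene synthesis, stood at 458, 236 and 175 in flox control and at 278, 273, 143 and 256 in knockout libraries (0.54 above macrophages, adjusted p = 0.030 in edgeR, and 0.13, 0.075 and 0.097 without flox control 1, knockout 2 and knockout 4). Its partner Alox5ap was lower by -2.50, and Ltc4s, which makes leukotriene C4, had 2 mast cell UMIs. Hpgd and Cysltr1 had 0. The prostaglandin E2 receptor Ptger3 was higher by 6.25 ± 0.56 on 41 mast cell UMIs.

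Cytokine and chemokine genes were lower than in macrophages for 9 of 17 tested and higher for 5, beside 25.3% and 13.9% over all genes. Vegfa (4.72 ± 0.29), Csf1 (3.74 ± 0.27, with 41 of its 179 UMIs in the low-protease barcodes) and Il4 (5.52 ± 0.47, 51 UMIs) were higher. Il13, a type 2 cytokine, had 46 UMIs in 18.7% of mast cells and 0 in macrophages, and after thinning it was found in 6.96% of cells. Tnf was lower than in macrophages by -2.15 ± 0.19 and higher than in T cells by 3.40 ± 0.34. Cxcl2, a neutrophil chemokine, was lower than in macrophages by -7.19, and Il5 had 0 UMIs.

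The monocyte chemokines Ccl2 and Ccl7 were present in the mast cells of each library. Ccl2 stood at 984, 2334 and 1224 in flox control and 1591, 2697, 1167 and 1970 in knockout libraries, and differed from macrophages by -0.28 (edgeR adjusted p = 0.24). Ccl7 stood at 961, 2216 and 2449 and at 1193, 2365, 1815 and 1957 (difference -0.33, adjusted p = 0.14 in edgeR). The fibroblast-marked knockout 2 barcode held 72 of the 1070 Ccl2 UMIs and 57 of the 1087 Ccl7 UMIs.

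Ccl3 and Ccl4, chemokines of activated leukocytes, rested on 1 barcode. Ccl3 stood at 68.6, 0 and 0 in flox control and at 1611, 0, 0 and 9.29 in knockout libraries, and Ccl4 at 45.8, 0 and 0 and at 1870, 0, 0 and 18.6. The low-protease knockout 1 barcode held 81 of the 86 Ccl3 UMIs, 93 of the 100 Ccl4 UMIs, 16 of the 17 Il1b UMIs and 32 of the 80 Il6 UMIs. The Cxcl1 UMIs (104) included 42 in the low-protease knockout 2 barcode.

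Genes of the release machinery separated by member. The granule GTPases Rab27b (9.18 ± 0.30) and Rab44 (8.90 ± 0.44) and the fusion protein Stx3 (2.23) were higher than in macrophages, and Snap23 was lower (-1.55). Of 17 tested, 4 were called higher and 6 lower, beside 13.9% and 25.3% over all genes. Syt2 and Syt9, calcium sensors of release described in mast cell lines, had 0 UMIs.

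Immediate early genes, which cell dissociation is known to raise, took a median of 2.696% of a mast cell's UMIs and up to 11.8%. Of 20 tested against macrophages, 10 were called higher and 8 lower, beside 13.9% and 25.3% over all genes. Jun (2.02 ± 0.14) and Nr4a1 (2.71 ± 0.16) were among the higher, and Atf3 (-3.06 ± 0.26) and Zfp36 (-1.18) among the lower. Fos stood at 3706, 2150 and 2405 in flox control and at 4057, 3874, 181 and 2881 in knockout libraries. Knockout 3 was low in mast cells. In its other cells Fos stood at 849 in macrophages (600.3 to 1727 over the 7 libraries), 2879 in fibroblasts (2879 to 5738) and 4070 in smooth muscle cells (2268 to 4070). The part of dissociation in these levels was not tested.

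Slc38a2 itself was present in mast cells of both genotypes. Its level was 503, 420 and 437 CPM in flox control and 438, 582, 428 and 409 in knockout libraries. The groups overlapped, and the difference was 0.09 ± 0.29 on the log2 scale (edgeR adjusted p = 0.99), with the sign turning when flox control 2 or knockout 2 was left out. Mast cell Slc38a2 differed from that of macrophages by 0.24 (edgeR adjusted p = 0.25) and from that of T cells by 0.43 (adjusted p = 0.048 in edgeR), a call lost in 13 of 14 alternatives, each of the 6 libraries left out among them (adjusted p = 0.072 to 0.28). It was found in 36.1% of mast cells at 1000 UMIs and in 65.1% unthinned.

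Of 13 amino acid transport genes tested against macrophages, 3 were called higher and 5 lower, beside 13.9% and 25.3% over all genes. Slc7a5, the light chain of the LAT1 transporter of large neutral amino acids, was higher by 4.44 ± 0.23 at 306 to 656 CPM, and Slc7a8 (LAT2) by 1.28 ± 0.18. Slc3a2, their shared heavy chain, differed by 0.02 from macrophages. Slc38a1, a related transporter, was lower by -0.75, a call lost without knockout 1 or knockout 4 (edgeR adjusted p = 0.061 and 0.088). In the osmotic stress list, 2 of 10 were called higher and 3 lower, near those shares of all genes, with Nfat5, the tonicity-responsive factor, at 0.15 (edgeR adjusted p = 0.55) and the taurine transporter Slc6a6 at -0.65.

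No gene was called between genotypes in mast cells. The fit used flox control 1 and 2 against knockout 1 to 4, since flox control 3 held 8 mast cells. Of 1803 genes tested, 0 passed in edgeR at an adjusted p under 0.05 (0%), 107 had an unadjusted p under 0.05 (5.93%), 918 were higher and 885 lower, and the median difference was 0.01. DESeq2 called 1 gene. In data simulated with the depths and mean levels of these libraries, the test recovered 74.0% of 200 changed genes at 4-fold and 85.5% at 8-fold. Genes too low to be tested were counted as missed. The simulation set the same spread for every gene and did not take it from the libraries, so these rates do not give the power of the real fit.

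Of the granule proteases outside the rule, Tpsab1 differed by 0.48 ± 0.32 (edgeR adjusted p = 0.85) and Tpsg1 by 0.34 ± 0.27 (adjusted p = 0.88 in edgeR), and neither passed. Prss34 differed by 2.16 ± 0.85 (edgeR adjusted p = 0.76), with 0 UMIs in knockout 1. Slc3a2 was at 435, 616 and 568 in flox control and 955, 915, 959 and 720 in knockout libraries, without overlap over 7 libraries (0.79, edgeR adjusted p = 0.76). Of the 1803 genes tested, 108 (5.99%) did not overlap over the 7 libraries, and 304 (16.9%) over the 6 fitted ones.

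Of the 10 genes with the smallest p, 9 are described. In flox control 3, 43.7 CPM is 1 UMI and values below 131 CPM are under 3 UMIs, so its levels of Cmss1, Exoc4, Gpc6 and Herc2 in mast cells cannot be read. Cmss1 stood at 229, 328 and 43.7 in flox control and at 19.9, 23.8, 13.0 and 23.2 in knockout mast cells (-3.60 ± 0.63, edgeR adjusted p = 0.12). In fibroblasts of the same libraries it stood at 322, 295 and 101 and at 114, 61.2, 81.3 and 73.4. In smooth muscle cells it stood at 466, 412 and 145 and at 130, 106, 130 and 70.3. In fibroblasts and smooth muscle cells, flox control 1 and 2 were thus high and flox control 3 lay near the knockout libraries.

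Exoc4, a subunit of the exocyst, stood at 412, 341 and 43.7 and at 119, 71.3, 156 and 92.9 (-1.72 ± 0.37, edgeR adjusted p = 0.36). Gpc6, a cell surface heparan sulfate proteoglycan, stood at 297, 236 and 0 and at 19.9, 59.4, 25.9 and 46.5 (-2.57 ± 0.58, adjusted p = 0.36 in edgeR). Herc2 stood at 206, 288 and 43.7 and at 39.8, 35.6, 130 and 69.7. Srgn stood at 1533, 2294 and 3454 and at 3699, 3089, 2942 and 3425, which placed flox control 3 among the knockout libraries. In macrophages, Srgn was highest in flox control 3, at 1870. Gpc6 in fibroblasts stood at 371, 379 and 198 in flox control and at 280, 252, 287 and 304 in knockout libraries. In T cells, Gpc6 was highest in flox control 3, at 285.

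Rgs1 and Smc3 did not overlap between genotypes over the 7 libraries and did not pass the test. Over all tested genes, 108 of 1803 (5.99%) did not overlap either. Both genes were named for small p in a fit that left out only flox control 3, so their lack of overlap follows in part from that choice. Rgs1, a regulator that shortens G protein signalling, stood at 641, 839 and 875 in flox control and at 2128, 1414, 1219 and 1218 in knockout mast cells (1.06 ± 0.30, edgeR adjusted p = 0.76). In macrophages its groups overlapped, with flox control 3 the highest at 313. Smc3, a cohesin subunit, stood at 229, 393 and 262 and at 59.7, 131, 90.7 and 135 (-1.43). Taok1 was at -1.45 and Rpl23 at 0.90, with flox control 3 at 131 (3 UMIs) for Taok1 and 1137 for Rpl23. In fibroblasts Taok1 stood at 222, 224 and 134 in flox control 1 to 3 and at 138 to 196 in knockout libraries. Rpl23 stood there at 811, 811 and 1240 and at 1026 to 1428.

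**Figure D5:**
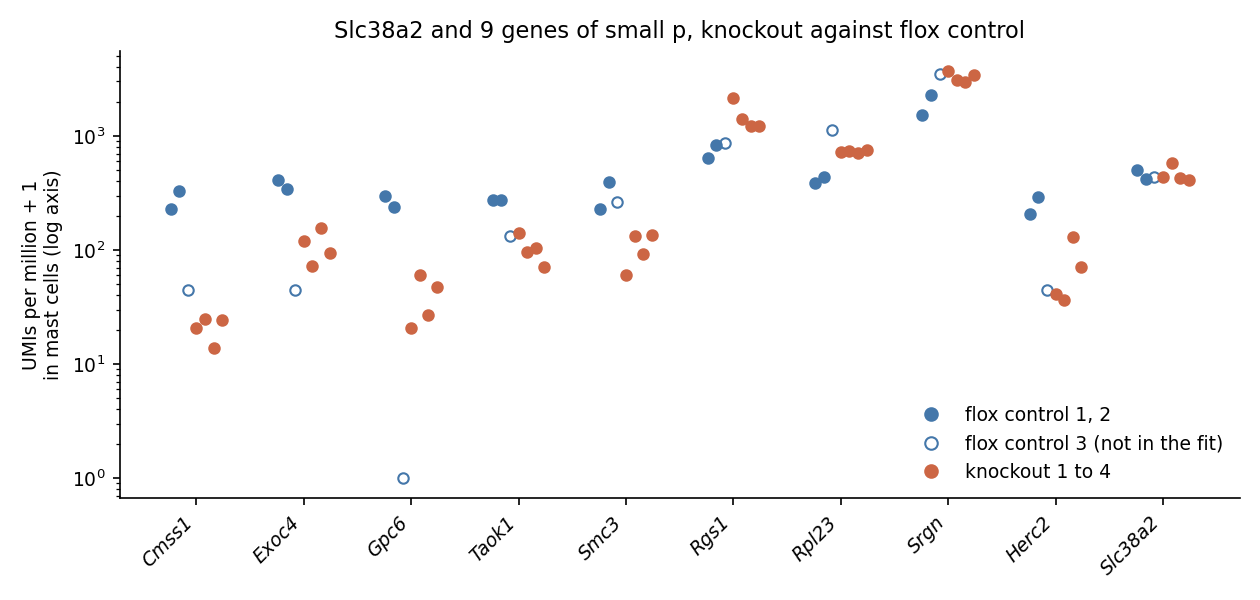
The 9 described genes of smallest p and Slc38a2 in mast cells, as CPM plus 1 on a log axis, 1 point per library, filled blue for flox control 1 and 2, open blue for flox control 3 (not in the fit) and orange for knockout 1 to 4. None passed the adjusted threshold, and for Srgn the open point (3454) lies among the orange ones. Open points at 43.7 CPM rest on 1 UMI.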

How the data were processed

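The authors' deposited matrices hold UMI counts of 31253 genes per barcode, with at least 500 UMIs in each barcode; per the submitters' processing notes they were made with CASAVA 1.8, STARsolo 2.7.10a, Seurat and the mm10 build, with no role, annotation or barcode selection given in the sources used here. From these counts, cells were chosen by the marker rule and UMIs summed per library and class. Sums were tested with edgeR 4.0.16 (TMM, filterByExpr, quasi-likelihood) and, as an alternative, DESeq2 1.42.0, in libraries with at least 10 cells of a class. With this, 1 UMI is worth 4.65 to 43.7 CPM. Genes of the rules were left out of counts of calls against macrophages and T cells. In the genotype comparison they were not left out of the genes tested and counted. In the class comparisons the low count filter saw both classes together, so a gene with counts in a single class could be tested. Gene coordinates come from GENCODE release M21 on GRCm38, which matched 99.8% of identifiers.

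A group at 0 UMIs was set to a floor of 3 counts, which covers counting error only. Genes were named as the highest of each list, the 12 largest rises and 6 largest falls per class comparison, and the 10 smallest p for genotype (these 3 above a mean log2 CPM of 6). Rises and falls also had to pass the test with the same direction in every fitted library. Gate genes and predicted genes (Gm with digits, or Rik) were left out of them. Other list members, Prss34 and the genes of low-protease barcodes were named after their values were seen. Of the genotype genes, 1 is not reported here. Members and gene lists were chosen with earlier results of these data known. Numbers shared between genotypes did not pair libraries, with flox control 2 numbered from its title WT2 although labelled replicate 1 (correlations of deviations 0.065, -0.051 and 0.028). The 3 edgeR comparisons were checked on simulated data.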

Additional observations from a re-analysis of the deposited data

Results flagged for a closer look

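In 7 of 102 groups of 4 knockout libraries, 1 library lay far from the other 3 (Dixon's gap over range above the 95% critical value), and chance gives about 1 in 20. Knockout 4 stood out in the mast cell share (0.974% of kept barcodes). Its Tpsb2 level (21797 CPM) also passed the limit. The groups included the rule genes, and Tpsb2 is 1 of them, so its level is a description. Knockout 1 stood out in Ccl4 (1870), Ccl3 (1611) and Il6 (636), of which its single low-protease barcode held 93, 81 and 32 UMIs. Knockout 3 was low in Alox5 (143), and knockout 2 was high in Slc38a2 (582).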

How the results depend on the processing

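The difference in mast cell share turned to -0.0130 percentage points without knockout 4, to -0.0130 with the replicate number as a block (exact sign flips, p = 0.50), and, chosen after seeing the data, to -0.0366 against Ptprc barcodes without knockout 4. Over 17 alternatives it ran from -0.0366 to 0.526, and over leaving out 1 library from -0.0130 to 0.279. Between genotypes, DESeq2 called 1 gene (Cmss1) and a fit with no filter called 13. The other 14 alternatives called 0, among them the replicate block, each library left out, no exclusion genes and cells with at least 1% protease UMIs, the last on 5 libraries. Slc38a2 turned to -0.019 without flox control 2, -0.038 without knockout 2 and -0.12 with no exclusion genes, and ran from -0.038 to 0.24 with 1 library left out. Counts against macrophages ran from 2656 to 3726 (2656 to 3041 with 1 library left out), and against T cells from 698 to 1121 (698 to 851), except 2080 with no filter. Among genes named against macrophages, 19 lost their call in at least 1 alternative, and 5 against T cells. Shares of cells with a UMI were thinned to 500 UMIs as well, which left the median over the rule genes at 95.8% against 98.1% but moved 18 of 24 gene shares, such as Ms4a2 (56.3% to 28.3%), Kit (82.3% to 66.3%) and Slc38a2 (36.1% to 19.3%). Flox control 3 has 8 mast cells, where 1 UMI is 43.7 CPM, so low genes cannot be read there.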

Other observations

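Pecam1, which the rule excludes, was found in 26.4% of the 303 barcodes with at least 3 mast cell genes when no exclusion was made (exact 95% interval 21.5% to 31.7%). The shares in other classes gated without Pecam1 were 6.34% of macrophages, 11.1% of T cells, 12.7% of fibroblasts and 16.5% of smooth muscle cells. Of other endothelial genes, Cdh5 was found in 0.330% of the 303 barcodes (1.31% of macrophages, 1.87% of fibroblasts, 0.460% of smooth muscle cells) and Vwf in 0.990% (1.42%, 1.21% and 0.581%). Cytl1 was found in 9.90% (6.45%, 10.7% and 4.48%) and Ptprb in 4.62% (3.01%, 8.07% and 2.27%). The Pecam1 share was above that of fibroblasts in 7 of 7 libraries and below that of smooth muscle cells in knockout 1 (13.3% against 13.8%).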
